A study of Mus musculus with 8 samples.

Results

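The 10 genes described here encode the D-type cyclins, their catalytic partners and the inhibitors that act on them: Ccnd1, Ccnd2, Ccnd3, Cdk4, Cdk6, Cdkn1a, Cdkn1b, Cdkn1c, Cdkn2c and Cdkn2d. They were taken by symbol from a table of 55416 gene identifiers, and each of the 10 symbols matched 1 identifier. RNA sequencing was done on MB21 cells, a mouse medulloblastoma line labelled as a ptch mutant and grown unattached in medium with B27. The cells had been kept for 5 days with 10 uM DS-1-38, a derivative of benzarone (4 libraries, called DS38), or with DMSO vehicle (4 libraries, called DMSO). All 8 libraries come from this 1 line, so the treated and the vehicle cells share the ptch mutation. The labels do not say whether the libraries of one group are separate cultures, so p-values here cover the spread among these 8 libraries alone, and that spread may be technical.

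D-type cyclins bind the kinases Cdk4 and Cdk6, and the pair phosphorylates the retinoblastoma protein and its relatives, which releases E2F factors and lets a cell pass from G1 into S phase. INK4 inhibitors bind the kinases themselves, whereas CIP/KIP inhibitors bind cyclin-kinase pairs, block those that contain Cdk2, and help D cyclins assemble with their kinases. In granule neuron progenitors of the cerebellum, Hedgehog signalling is known to keep Ccnd1 and Ccnd2 transcribed, and rising p27, the product of Cdkn1b, accompanies exit from the cycle. In mice, loss of Cdkn2c or of Cdkn1b is known to hasten medulloblastoma on a Ptch1-mutant background.

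Library totals ran from 17142397 to 28476019 counts in DS38 and from 18878556 to 25582159 counts in DMSO, and no pair of libraries agreed within counting noise. The DS38 libraries fell in pairs. A chi-square of counts over genes, per degree of freedom, was 4.81 between DS38 replicates 1 and 2 and 4.33 between replicates 3 and 4, but 12.02 to 20.98 across these pairs, against 4.59 to 8.38 within DMSO. It was 36.2 to 49.8 between DS38 replicates 1 or 2 and DMSO, and 16.7 to 24.6 between DS38 replicates 3 or 4 and DMSO. This measure grows with depth. The results were therefore also computed without either pair. Of 8 listed granule neuron progenitor and medulloblastoma markers, all 8 passed the filter on low counts, with a summed level of 1599 to 1678 CPM in DS38 and 1424 to 1491 CPM in DMSO. CPM is a count scaled to a library total of 1000000, and for single tested genes that total was adjusted by TMM factors, which allow for differences in RNA makeup between libraries. Listed microglial markers summed to 1.55 to 2.04 CPM in DS38 and 0.848 to 1.5 CPM in DMSO, with Cx3cr1 at 0 in all libraries. Endothelial markers summed to 2.38 to 2.89 CPM in DS38 and 1.06 to 2.81 CPM in DMSO, with Cldn5 at 0 in all libraries. Oligodendrocyte markers summed to 4.70 to 6.01 CPM in DS38 and 4.48 to 6.32 CPM in DMSO, with Mag at 0 in all libraries. Astrocyte markers summed to 114 to 116 CPM in DS38 and 117 to 121 CPM in DMSO, nearly all of it Slc1a3. Fibroblast markers summed to 55.0 to 60.4 CPM in DS38 and 73.9 to 78.5 CPM in DMSO, nearly all of it Pdgfra.

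Relative to adjusted library totals, RNA of most of these genes was lower in the DS38 libraries. Ccnd1, Ccnd2, Cdk4, Cdk6, Cdkn1a, Cdkn1b and Cdkn2c fell, by 14.6% to 38.8%, so that a cyclin, its kinase and inhibitors of the kinase were lower side by side. Of the 10 genes, 9 passed the filter on low counts. By edgeR's quasi-likelihood test, with a threshold of 0.05 on the Benjamini-Hochberg adjusted p, 7 of the 9 were lower in DS38, 0 were higher and 2, Ccnd3 and Cdkn2d, did not pass. Of all 15133 genes tested, 39.5% passed by the same rule, 20.7% lower and 18.8% higher. Of the genes that passed, 47.5% were higher, and 64.3% were with library totals in place of TMM-adjusted ones. Of the 6842 genes with a mean level between those of the lowest and highest of the 9, 29.7% were lower and 20.8% higher. There were likewise 0 rises at an unadjusted p under 0.05, with DESeq2 and with limma-voom. For each of the 7, all DS38 libraries lay below all DMSO libraries in TMM-adjusted CPM, as was so for 18.8% of genes tested. The opposite order was seen for 17.3%, so that the groups did not overlap for 36.1% of genes. Scaled to library totals alone, the groups overlapped for Cdk4, Cdkn1b and Cdkn2c. The same count of 7 lower and 0 higher was found without DS38 replicates 1 and 2 and without DS38 replicates 3 and 4. Without replicates 1 and 2 the log2 fold change was -0.38 for Ccnd1, -0.41 for Cdk6 and -0.79 for Cdkn1a. Without replicates 3 and 4 it was -0.38 for Ccnd1, -0.23 for Cdk6 and -0.64 for Cdkn1a. The median log2 fold change was -0.23 over the 9 genes and -0.01 over all genes tested. In bulk RNA, fewer cells that express a gene and less of its RNA per cell cannot be told apart.

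**Figure D1:**
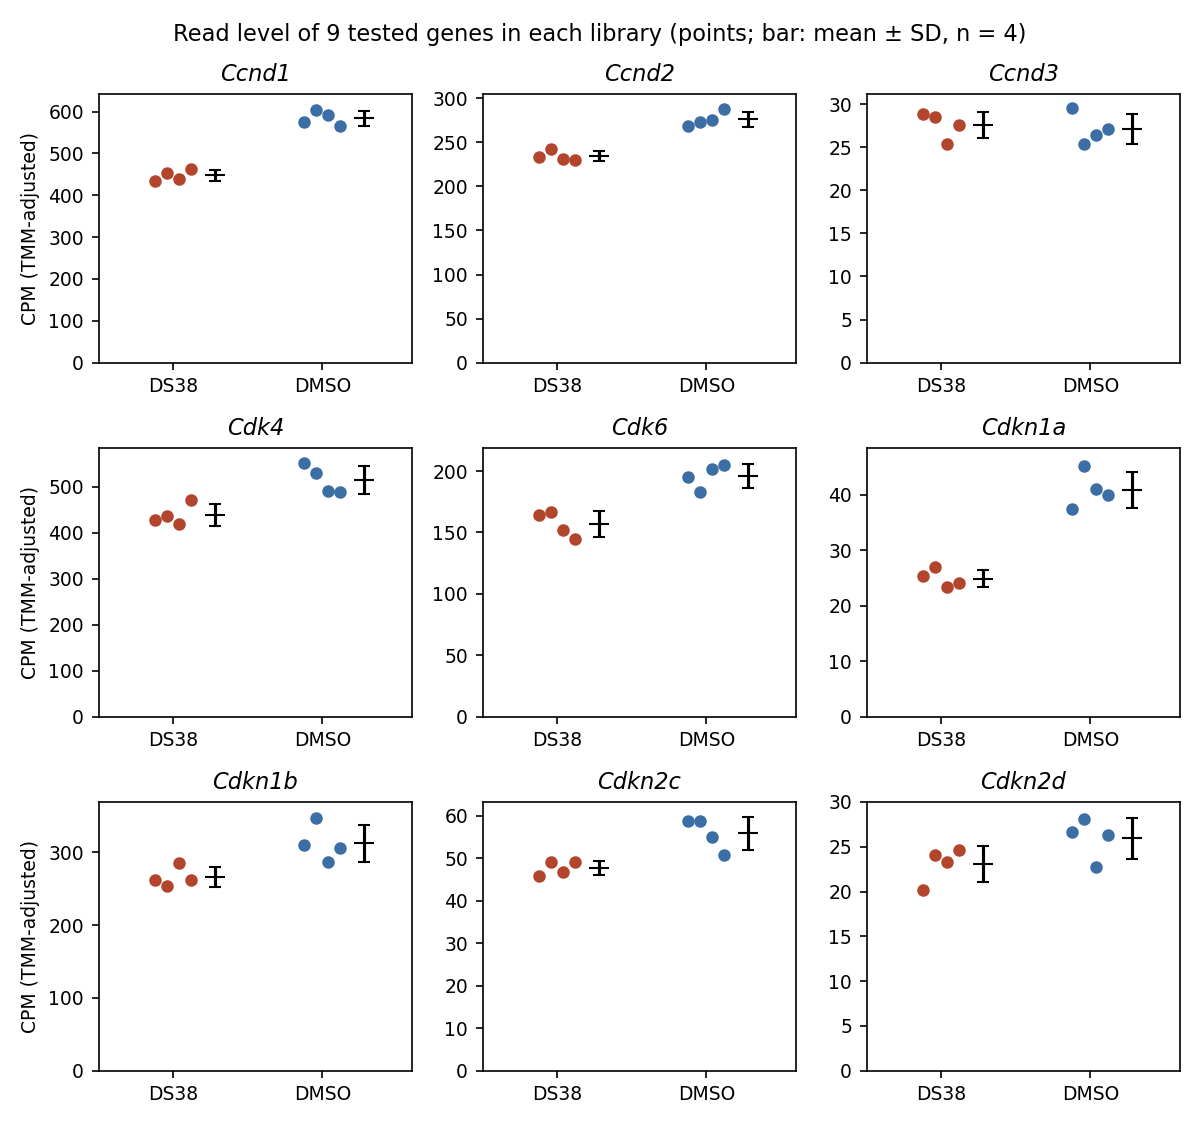
CPM (vertical axes, from 0) of the 9 tested genes in each DS38 library (left in each panel) and each DMSO library (right), with the mean ± SD of the 4 libraries as a bar. The points of the groups overlap for Ccnd3 and Cdkn2d and are apart for the other 7 genes, widely for Ccnd1 and Cdkn1a and narrowly for Cdkn1b.

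Sequences upstream of transcription starts are shown for Cdk4, the most abundant of these transcripts per length (RPKM, below Ccnd1 in CPM), and for both annotated starts of Cdkn1a, the gene that fell most. RefSeq (GRCm38.p6, an earlier build than the one named for the counts) gave promoters for 7 of the 10 genes, and Ccnd1, Ccnd2 and Cdkn1c had no entry. Each run holds the 250 bases before a start, 5′ to 3′ on the plus strand, with the motif matches in capitals. The letters searched for the E-box were CACGTG. For the GC box they were GGGCGG and for the TATA box TATAA, on both strands. A p53 element is also in capitals.
Cdk4, chr10:127063285-127063534: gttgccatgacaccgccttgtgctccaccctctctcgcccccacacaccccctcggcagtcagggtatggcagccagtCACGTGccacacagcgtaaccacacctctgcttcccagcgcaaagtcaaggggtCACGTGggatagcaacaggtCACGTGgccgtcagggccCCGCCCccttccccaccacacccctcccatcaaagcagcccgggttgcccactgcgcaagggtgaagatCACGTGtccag
Cdkn1a, first start, chr17:29090729-29090978: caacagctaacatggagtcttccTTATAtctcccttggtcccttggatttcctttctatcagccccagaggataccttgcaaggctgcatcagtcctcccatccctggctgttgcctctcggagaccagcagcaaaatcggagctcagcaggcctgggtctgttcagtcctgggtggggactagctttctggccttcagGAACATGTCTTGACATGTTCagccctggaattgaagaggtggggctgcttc
Cdkn1a, second start, chr17:29093519-29093768: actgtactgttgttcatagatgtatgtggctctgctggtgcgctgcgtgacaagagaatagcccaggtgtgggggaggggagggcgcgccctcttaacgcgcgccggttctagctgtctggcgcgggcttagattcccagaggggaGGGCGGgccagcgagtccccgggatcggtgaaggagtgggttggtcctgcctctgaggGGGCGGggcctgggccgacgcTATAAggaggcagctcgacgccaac

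The Cdk4 window held 4 E-boxes, the sequence that Myc family factors bind, and 1 GC box. Of 32851 promoter windows of the same length, 6.02% held at least 1 E-box and 7 windows held 4 or more. The first Cdkn1a window held a p53 element, counted as adjoining decamers with at most 1 mismatch, which 25 of the 32851 windows (0.0761%) held. It also held 1 TATA box, on the minus strand and far from the start. The second held 2 GC boxes and 1 TATA box close to the start. GC boxes were in 32.7% of windows and TATA boxes in 22.8%. The E-box, GC box, TATA box and p53 patterns were added after the sequences were seen, so their shares are no test. None of the 10 windows of the 7 genes matched TTTGGCGC or TTTCCCGC, letters of E2F sites, or GACCACCCA, a Gli site, searched on both strands. These were held by 0.417%, 0.895% and 0.225% of windows. A match describes letters only and is no measure of binding. Mycn, a Myc family gene, stood at 53.8 ± 2.31 CPM in DS38 and 56.7 ± 1.68 CPM in DMSO (SD, n = 4 each; edgeR adjusted p = 0.186). Myc itself stood at 43.6 ± 1.68 CPM in DS38 and 41.7 ± 2.23 CPM in DMSO (SD, n = 4 each; edgeR adjusted p = 0.359). Trp53, the p53 gene, stood at 186 ± 11.8 CPM in DS38 and 192 ± 10.4 CPM in DMSO (SD, n = 4 each; edgeR adjusted p = 0.468). These 3 genes were named after their values were seen, and none passed. Their RNA levels give no measure of the activity of the proteins.

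Ccnd1 encodes cyclin D1, the D cyclin best known as a Hedgehog target in this tumour. It stood at 435, 453, 439 and 463 CPM in DS38 replicates 1 to 4, against 575, 604, 591 and 564 CPM in DMSO replicates 1 to 4. The lowest vehicle library was 101 CPM above the highest treated one. The level averaged 448 ± 13.1 CPM in DS38 and 583 ± 17.5 CPM in DMSO (SD, n = 4 each), a difference of -0.38 ± 0.039 SE on the log2 scale (edgeR adjusted p = 5.50e-07). Ccnd2, for cyclin D2, had 234, 243, 232 and 230.4 CPM in DS38, against 268, 273, 275 and 288 CPM in DMSO. Here too the groups were apart, with a coefficient of variation of 2.37% in DS38 and 3.04% in DMSO. Its log2 fold change was -0.23 ± 0.038 SE (edgeR adjusted p = 9.70e-05). In the annotation, Ccnd1 shares 1100 exon bases with LTO1 on the other strand, which had 233 to 423 counts a library, against 7627 to 14329 counts for Ccnd1.

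Ccnd3, for cyclin D3, was the D cyclin that did not pass the test. It had 28.8, 28.5, 25.4 and 27.5 CPM in DS38 and 29.5, 25.3, 26.4 and 27.2 CPM in DMSO, and the libraries of the groups were interleaved. The log2 difference was 0.03 (95% interval -0.10 to 0.16; edgeR adjusted p = 0.765), which leaves room for a fall smaller than that of Ccnd1 or for a rise. Its sign turned to -0.04 once the trend of level with gene length was removed. Per the annotation used for names, Ccnd3 shares 361 exon bases with Bysl on the other strand. Bysl had 861 to 1559 counts a library, against 441 to 829 counts for Ccnd3, and without a stated strand setting reads from the shared bases cannot be assigned.

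Cdk4 and Cdk6 encode the kinases that D cyclins activate. Cdk4 had 427, 437, 418 and 472 CPM in DS38 and 551, 529, 490.1 and 488 CPM in DMSO. DS38 replicate 4 came within 16.4 CPM of the lowest DMSO library, and the groups did not overlap. The log2 fold change was -0.23 ± 0.048 SE (edgeR adjusted p = 0.000921). Cdk6 had 165, 167, 152 and 145 CPM in DS38 and 195, 183, 202 and 205 CPM in DMSO, with a log2 difference of -0.32 ± 0.049 SE (edgeR adjusted p = 5.37e-05). Its treated libraries all lay below its vehicle libraries. Cdk4 shares 641 exon bases with Tspan31 on the other strand, which had 1196 to 2125 counts a library, against 7260 to 13735 counts for Cdk4.

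Cdkn1a encodes p21, a CIP/KIP inhibitor that p53 is known to induce, and it changed most of the 9. It had 25.3, 26.9, 23.3 and 24.0 CPM in DS38, against 37.4, 45.1, 41.0 and 39.9 CPM in DMSO. The highest treated library lay 10.6 CPM below the lowest vehicle library. The mean was 24.9 ± 1.56 CPM in DS38 and 40.8 ± 3.19 CPM in DMSO (SD, n = 4 each), a fall of 38.8% (log2 fold change -0.71 ± 0.063 SE, edgeR adjusted p = 8.79e-08). Among genes tested, 6.11% had a larger log2 fold change in either direction, against 20.4% for Ccnd1 and 39.3% for Cdkn1b.

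Cdkn1b, for p27, was the most abundant inhibitor transcript. It had 262, 254, 286 and 261 CPM in DS38 and 310, 347, 287 and 306 CPM in DMSO, so that DS38 replicate 3 lay 1.45 CPM below DMSO replicate 3 and the other libraries were farther apart. The log2 fold change was -0.23 ± 0.053 SE (edgeR adjusted p = 0.00214). Cdkn1c, for p57, was close to absent, with 2, 3, 0 and 0 counts in DS38 replicates 1 to 4 and 0, 1, 0 and 0 counts in DMSO replicates 1 to 4. No library exceeded 3 counts, which stand for 0.105 to 0.175 CPM in these libraries, counting error only, and no fold is given for it.

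Cdkn2c encodes the INK4 inhibitor p18. It had 45.8, 49.2, 46.8 and 49.2 CPM in DS38 and 58.8, 58.8, 55.1 and 50.8 CPM in DMSO, with a gap of 1.54 CPM between the highest DS38 library and DMSO replicate 4. Its log2 fold change was -0.23 ± 0.052 SE (edgeR adjusted p = 0.00189). Cdkn2d, for the related p19, had 20.1, 24.1, 23.3 and 24.7 CPM in DS38 and 26.6, 28.1, 22.7 and 26.3 CPM in DMSO. DMSO replicate 3 lay among the treated libraries. The log2 difference of -0.18 (95% interval -0.33 to -0.02, not adjusted for the number of genes) missed the threshold (edgeR adjusted p = 0.0677). It passed without DMSO replicate 3 (edgeR adjusted p = 0.0204), without DS38 replicate 4 (0.0405) and with no filter on low counts (0.0319), and its value was -0.12 with library totals alone.

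**Figure D2:**
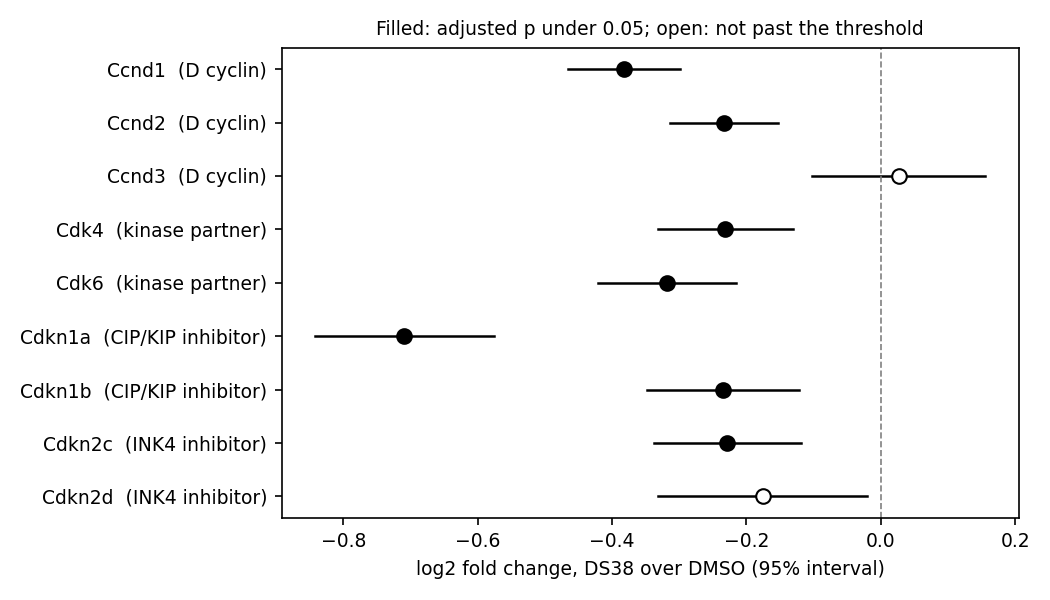
Log2 fold change of DS38 over DMSO (horizontal axis) with its 95% interval for the 9 tested genes, ordered by role. Filled points passed an adjusted p under 0.05, and Cdkn1a lies farthest to the left at -0.71 while the intervals of Ccnd2, Cdk4, Cdkn1b and Cdkn2c, at -0.23 each, cover much the same range.

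Levels of different genes were compared per length, as RPKM, the CPM per 1000 bases of the gene length in the deposited table. That length counts every annotated exon, so a gene with long alternative exons such as Cdk6, listed at 13989 bases, may be set too low. Cdk4 was highest at 135 ± 7.20 RPKM in DS38 and 158 ± 9.47 RPKM in DMSO (SD, n = 4 each). Ccnd1 came next with 95.1 ± 2.79 RPKM in DS38 and 124 ± 3.72 RPKM in DMSO. Cdkn1b followed with 58.4 ± 3.02 RPKM in DS38 and 68.7 ± 5.55 RPKM in DMSO. Below these came Ccnd2, Cdkn2c, Cdkn2d, Cdk6, Cdkn1a, Ccnd3 and, near 0, Cdkn1c. The order of mean RPKM was the same in both groups. Neighbours in that order did not overlap between libraries in DS38, and in DMSO the exception was Cdkn2d, whose lowest library at 14.4 RPKM lay under the highest of Cdk6 at 14.6 RPKM.

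**Figure D3:**
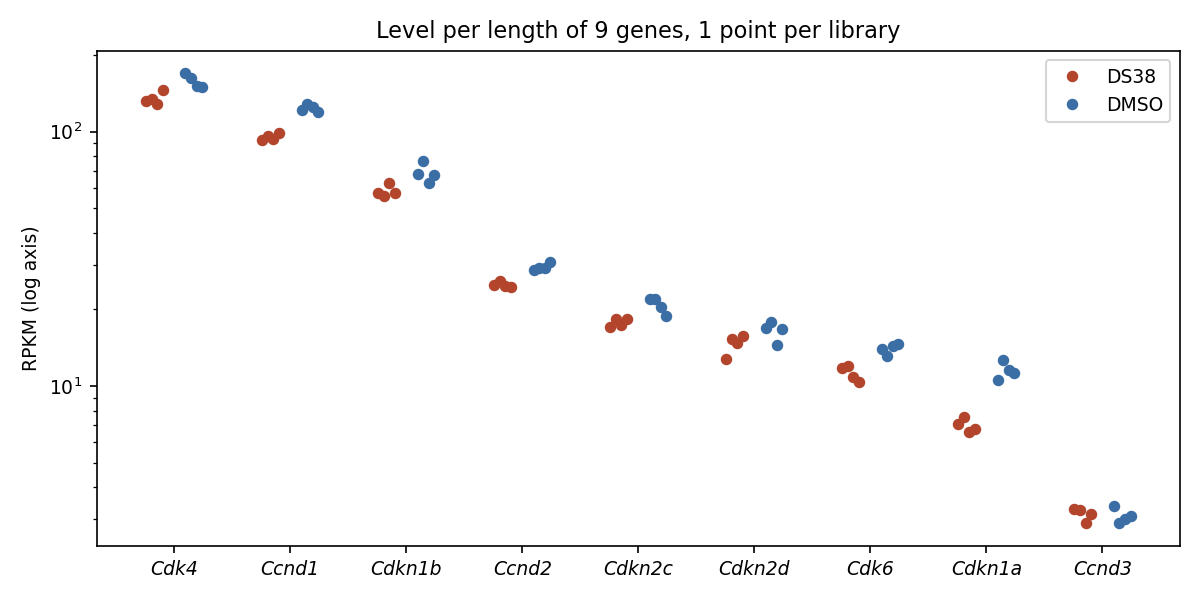
RPKM on a log axis for 9 genes in each DS38 library (left of each pair) and each DMSO library (right), ordered by mean level. Cdk4 and Ccnd1 lead and Ccnd3 is lowest, at 3.14 RPKM on average in DS38 and 3.09 RPKM in DMSO.

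Summed by family, D cyclins stood at 123 ± 2.92 RPKM in DS38 and 156 ± 3.15 RPKM in DMSO (SD, n = 4 each), a ratio of 0.788. The sum of Cdk4 and Cdk6 had a ratio of 0.848, that of the CIP/KIP inhibitors 0.816 and that of the INK4 inhibitors 0.869. These sums describe RNA only, and they give no measure of protein. Cyclin D1 RNA made up 77.2% ± 0.643 of the D cyclin sum in DS38 and 79.3% ± 0.868 in DMSO. Cyclin D2 RNA made up 20.3% ± 0.563 in DS38 and 18.8% ± 0.800 in DMSO, and cyclin D3 RNA 2.55% ± 0.141 in DS38 and 1.98% ± 0.163 in DMSO (SD, n = 4 each).

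Ratios of 2 genes within a library do not depend on how libraries are scaled to each other, so 6 ratios within families were compared by an exact two-sided permutation test over the 70 arrangements of the libraries, whose smallest p is 0.0286. Cdkn1a over Cdkn1b, in counts per length, was 0.124, 0.136, 0.105 and 0.118 in DS38 and 0.155, 0.166, 0.183 and 0.167 in DMSO. The groups did not overlap, and this ratio was 0.716-fold in DS38 relative to DMSO (exact permutation p = 0.0286, adjusted over the 6 ratios p = 0.0857). Ccnd1 over Ccnd3 averaged 30.3 ± 1.83 in DS38 and 40.3 ± 3.53 in DMSO (SD, n = 4 each), again without overlap (exact permutation p = 0.0286, adjusted p = 0.0857). Ccnd1 over Ccnd2 averaged 3.81 ± 0.141 in DS38 and 4.23 ± 0.219 in DMSO (SD, n = 4 each), and Ccnd3 over Ccnd2 averaged 0.126 ± 0.00607 in DS38 and 0.105 ± 0.00843 in DMSO, each with an exact permutation p = 0.0571 and adjusted p = 0.0857. Cdk6 over Cdk4 differed by -0.09 on the log2 scale (exact permutation p = 0.429) and Cdkn2c over Cdkn2d by -0.05 (exact permutation p = 0.543). None of the 6 ratios passed after adjustment, and the smallest p this design allows would pass over 6 ratios only if 4 or more of them reached it. Cdkn1c over Cdkn1b was not tested because Cdkn1c had 0 counts in 5 libraries.

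**Figure D4:**
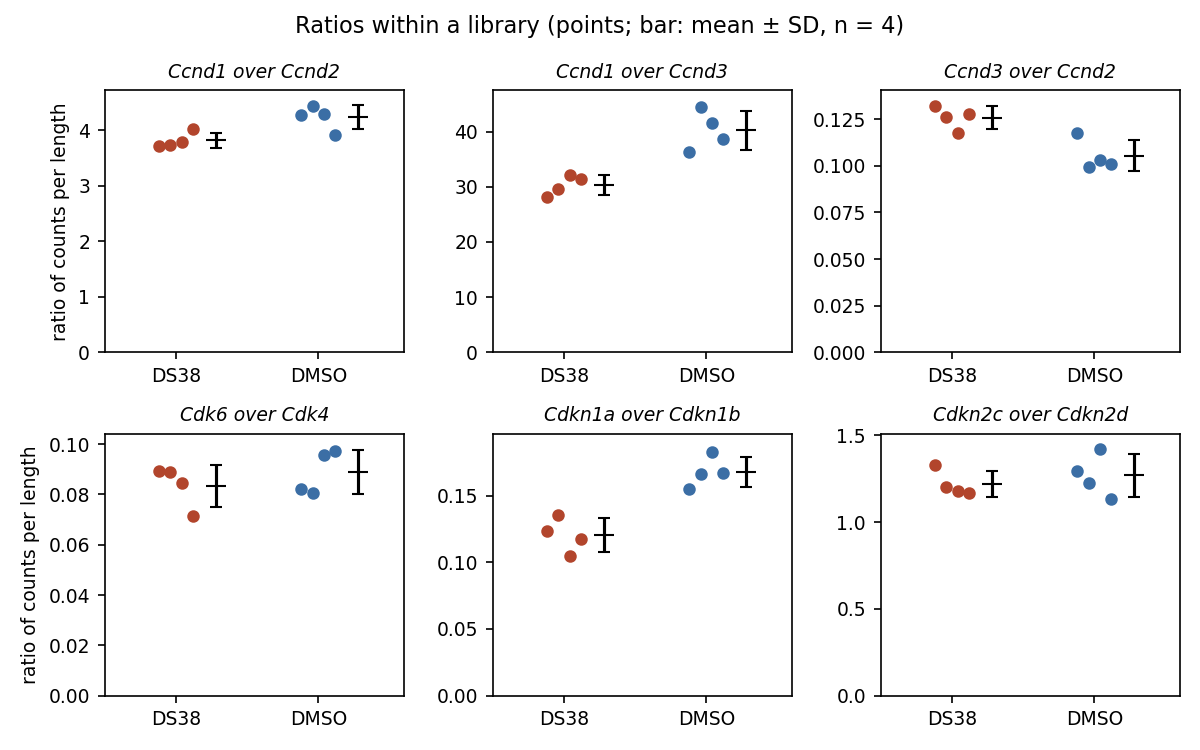
Ratio of counts per length (vertical axes, from 0) for the 6 pairs of genes in each DS38 library (left) and each DMSO library (right), with the mean ± SD of 4 libraries. Cdkn1a over Cdkn1b and Ccnd1 over Ccnd3 are lower in every DS38 library than in any DMSO library, and Cdk6 over Cdk4 is interleaved.

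The genes around these regulators were described from 5 lists, to be read against 20.7% lower and 18.8% higher among all genes tested. Of 13 genes for pocket proteins, E2F factors and their DP partners, all tested, 11 fell, 0 rose and 2 did not pass (edgeR, median log2 fold change -0.21). At an unadjusted p under 0.05, 12 fell and 0 rose, DESeq2 gave 9 falls and 0 rises, and limma-voom gave 11 falls and 0 rises. Rbl1, which encodes the retinoblastoma relative p107, had 68.9, 68.3, 68.2 and 68.2 CPM in DS38 and 99.8, 98.8, 103 and 100.2 CPM in DMSO (log2 fold change -0.55, edgeR adjusted p = 2.47e-09). Rb1, the retinoblastoma gene and the main substrate of Cdk4, fell as well (log2 fold change -0.27, edgeR adjusted p = 0.000758). So did the activator E2f2 (log2 fold change -0.48) and the repressor E2f8 (-0.32).

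Of 10 genes for cyclin E and cyclin A kinases and their activators, 5 fell, 1 rose and 4 did not pass (median log2 fold change -0.15). Among all genes tested, 20.7% were lower and 18.8% higher. Ccne2, for cyclin E2, averaged 69.3 ± 2.43 CPM in DS38 and 113 ± 5.85 CPM in DMSO (SD, n = 4 each; log2 fold change -0.71, edgeR adjusted p = 9.43e-10). Cdk2, the partner of cyclin E, fell (log2 fold change -0.33), as did the mitotic kinase gene Cdk1 (-0.33). The gene that rose was Ccna1, named after its value was seen as the exception of its list. It encodes the cyclin A best known from the testis and stood at 3.66 ± 0.422 CPM in DS38 and 2.15 ± 0.120 CPM in DMSO (SD, n = 4 each; log2 fold change 0.78, edgeR adjusted p = 0.000502).

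Of 16 genes for the turnover and assembly of D cyclins and p27, 2 rose, 4 fell and 10 did not pass (median log2 fold change -0.04), near the 18.8% higher and 20.7% lower among all genes. Dtl, which directs a ubiquitin ligase to p21, fell (223 ± 3.71 CPM in DS38 and 283 ± 3.62 CPM in DMSO, SD, n = 4 each; log2 fold change -0.34, edgeR adjusted p = 6.38e-07). Ddb1, the adaptor of the same ligase, rose (log2 fold change 0.26, edgeR adjusted p = 3.81e-05). Cryab, a small heat shock protein gene of low level, rose, with 2.93 ± 0.309 CPM in DS38 and 1.12 ± 0.216 CPM in DMSO (SD, n = 4 each; log2 fold change 1.40, edgeR adjusted p = 1.31e-05). With library totals alone, 5 genes of this list rose, and with the length trend removed, 8 fell. Of all 15133 genes tested, 3915 rose with library totals alone, against 2840 with TMM-adjusted ones. With the length trend removed 3779 fell, against 3140 without that removal.

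The other INK4 genes lie side by side in the genome. Cdkn2a, which encodes p16 and, in another reading frame, p19Arf, was well expressed, at 78.5, 76.5, 75.1 and 80.4 CPM in DS38 and 90.5, 85.4, 69.1 and 74.6 CPM in DMSO. DMSO libraries lay on both sides of the treated ones, and the log2 difference was -0.05 (edgeR adjusted p = 0.653). Counts per gene do not separate its transcripts. Cdkn2b, for p15, did not pass the filter, with 8, 10, 6 and 5 counts in DS38 and 6, 2, 0 and 2 counts in DMSO. Scaled to CPM, all DS38 libraries lay above all DMSO libraries (0.260 to 0.346 CPM against 0 to 0.241 CPM). That order was seen for 17.3% of genes tested.

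Of 18 transcription factor genes known to act on D cyclin or inhibitor genes, 15 were tested, of which 3 rose, 6 fell and 6 did not pass (median log2 fold change -0.08), beside 18.8% higher and 20.7% lower among all genes. Without DS38 replicates 1 and 2, 1 rose and 5 fell. In that fit 1780 of 15266 genes rose and 2265 fell, against 2840 and 3140 of 15133 with all libraries. Gli1, the Hedgehog effector, fell (log2 fold change -0.60, edgeR adjusted p = 2.65e-09). Tfap4, known in human cells as a repressor of the p21 gene, averaged 28.2 ± 1.40 CPM in DS38 and 45.0 ± 3.64 CPM in DMSO (SD, n = 4 each; log2 fold change -0.68, edgeR adjusted p = 8.41e-08). Bmi1, the Polycomb gene known to silence Cdkn2a, fell (log2 fold change -0.29, edgeR adjusted p = 7.83e-05). The 3 that rose, named after their values were seen, were Gli2, another Hedgehog effector, and the forkhead factor genes Foxo1 and Foxo3. Gli2 averaged 228 ± 10.3 CPM in DS38 and 208 ± 11.7 CPM in DMSO (SD, n = 4 each), and its groups overlapped (log2 fold change 0.13, edgeR adjusted p = 0.0266). Foxo1 averaged 27.4 ± 1.21 CPM in DS38 and 21.9 ± 1.43 CPM in DMSO (SD, n = 4 each; log2 fold change 0.33, edgeR adjusted p = 0.000413). For Foxo3 the log2 value was 0.23, with an adjusted p of 0.00221 in edgeR.

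**Figure D5:**
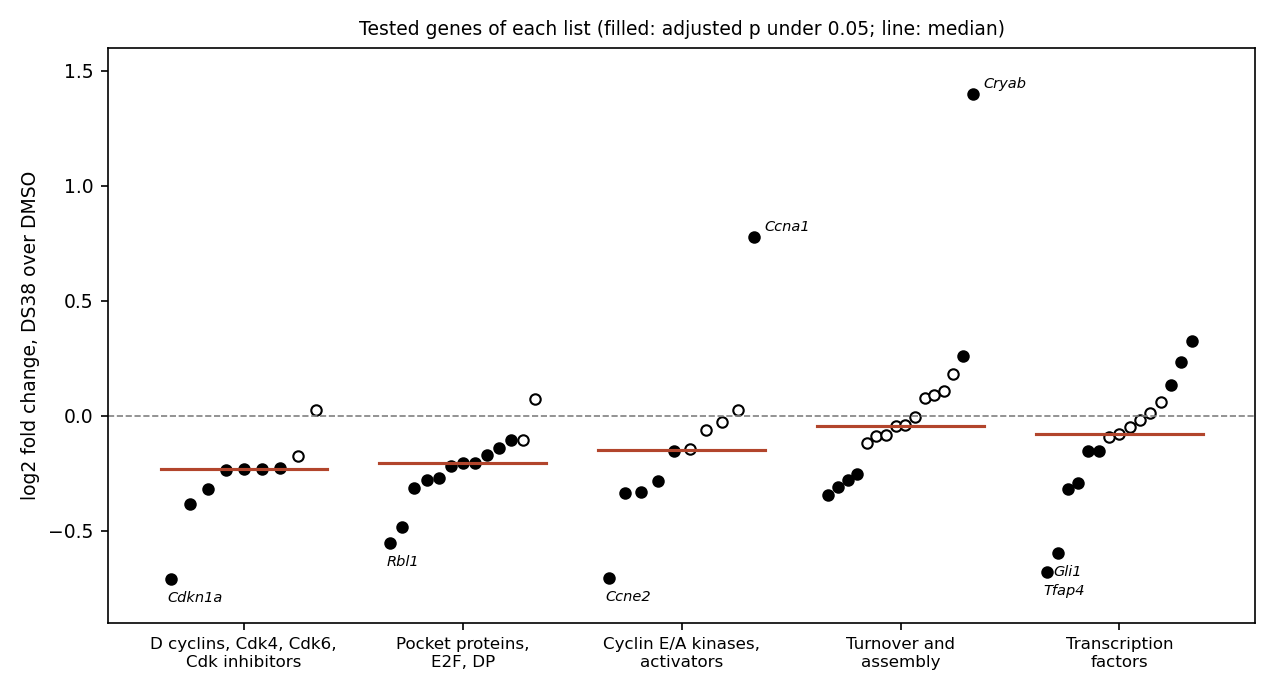
Log2 fold change of DS38 over DMSO (vertical axis) for each tested gene of 5 groups of genes, sorted within a group, with filled points past an adjusted p under 0.05 and a line at the group's median. The medians run from -0.23 for the D cyclins, their kinases and the inhibitors to -0.04 for the turnover and assembly genes, where Cryab stands apart at 1.40.

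Markers of dividing and of differentiated cells were measured in the same libraries. Of 8 listed proliferation markers 2 rose, 3 fell and 3 did not pass, beside 18.8% higher and 20.7% lower among all genes. Pcna (log2 fold change -0.64), Mcm5 (-0.38) and Top2a (-0.28) fell, and Ccnb1 (0.28) and Plk1 (0.18) rose. The summed level of the 8 was 3304 to 3637 CPM in DS38 and 3481 to 3611 CPM in DMSO. On that scale the largest parts of the sum were Mki67, averaging 966 CPM in DS38 and 798 CPM in DMSO, and Top2a (1023 CPM in DS38 and 1190 CPM in DMSO). The marker genes in this paragraph were named after their values were seen. Of 8 markers of differentiated neurons 7 were tested. Of these, 6 rose, 0 fell and 1 did not pass, beside 18.8% higher among all genes. The 1 that did not pass was Rbfox3, which leaned the other way (log2 fold change -0.10, edgeR adjusted p = 0.0536). Gabra6 was not tested, with at most 1 count a library. The summed level of the 8 neuron markers, again without TMM factors, was 533 to 555 CPM in DS38 and 372 to 388 CPM in DMSO. Cntn2 was the largest part of that sum, averaging 236 CPM in DS38 and 121 CPM in DMSO on the same scale. Of the 8 granule neuron progenitor and medulloblastoma markers 4 rose, 2 fell and 2 did not pass. Atoh1 (log2 fold change 0.60) and Barhl1 (0.71) were among those that rose, and Gli1 (-0.60) and Zic1 (-0.16) fell. The part of a change in cell state in the falls of the cyclin, kinase and inhibitor genes was not tested.

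As a description, the genes whose log2 CPM followed each fallen gene most closely were sought among 10176 others that averaged 4 CPM or more. Pearson's r over the 8 libraries was 0.999 for Ccnd1 with Eif1, a gene of start codon selection, and 0.997 with the proteasome activator gene Psme3. For Cdkn1a it was 0.994 with Hdgfl3 and 0.993 with the stress-induced transcription factor gene Ddit3. Cdk6 was followed by the histone methyltransferase gene Nsd2 (r = 0.995) and by Mdc1 (0.990), a gene of the response to DNA breaks. Ccnd2 was followed by Usp11 (r = 0.989), Cdk4 by Triap1 (0.991), Cdkn1b by Clcn4 (0.982) and Cdkn2c by Hmgn2-ps1 (0.994), a pseudogene whose reads may be shared with Hmgn2. Libraries of both groups enter each r, and all share depth and scaling. With the group means removed, r for these pairs ran from 0.853 for Ccnd2 with Usp11 to 0.984 for Cdkn2c with Hmgn2-ps1. The genes were picked for a high r among many, so neither value is a test.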

How the data were processed

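Per the submitters' processing notes, the tools were STAR 2.7.9a, Subread 2.0.3 with featureCounts, edgeR and R 4.1.0, and the builds GRCm39 and GRCh38.p13, whose roles are not stated. The deposited table holds whole-number counts per gene and library, not normalized by the authors, and each gene's length. For the strand setting, annotation release and multiply matching reads the entry is "not given in the sources used here". Symbols came from GENCODE M21, which matched 52083 of 55416 identifiers. It is of the earlier build GRCm38, and shared exon bases and promoters are as annotated there.

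All genes were fitted with edgeR 4.0.16 (R 4.3.3), quasi-likelihood and robust, with TMM factors and filterByExpr at 10 counts. Benjamini-Hochberg adjustment ran over all 15133 genes kept, with a threshold of 0.05. The common biological coefficient of variation was 5.53%. The SE of a log2 fold change is its size over the root of its F, and intervals are at 95% for single genes. CPM and RPKM were computed here from the deposited counts and lengths. On counts simulated for DS38 against DMSO (14967 genes), the test called 6 of 14772 unchanged genes. It called 34 of 49 changed 1.25-fold, 38 of 48 changed 1.5-fold, 49 of 50 changed 2-fold and 48 of 48 changed 3-fold. Recovery of changes under 1.25-fold was not tested. The simulated libraries were drawn independently, with the same biological coefficient of variation for every gene. The measured DS38 libraries fell in pairs, and the rates of the test on such libraries were not tested. In the measured data, DMSO over DS38 was 1.17 for Cdk4 and Cdkn2c, 1.18 for Ccnd2 and Cdkn1b and 1.247 for Cdk6. It was 1.30 for Ccnd1 and 1.63 for Cdkn1a. Ratios were compared by exact permutation. The alternatives were DESeq2 1.42.0 (size factors and Wald test), library totals, limma-voom (limma 3.58.1), other filters, a replicate block, a fit that was not robust, removal of the length trend and leaving out libraries. Leaving out DS38 replicates 1 and 2, or 3 and 4, was chosen after seeing the data.

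The members and lists were chosen with earlier results of these data known. The named genes were the 10 members, up to 3 genes with the smallest p in each list, Cdkn2a, Cdkn2b and Rb1, and the closest followers by correlation. The E2F and Gli motifs belong to the same plan, and the E-box, GC box, TATA box and p53 element (its 1 mismatch included) were added after the sequences were seen. Of 123 list entries all 123 matched the table, Skp1 through a synonym. Protein sequences were not used here.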

Additional observations from a re-analysis of the deposited data

Results flagged for a closer look

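In each group of 4 libraries, a library was singled out when its distance to the nearest other was, as a share of the group's range, above Dixon's critical value at 95%. Of 64 groups of values examined, 5 held such a library, where chance gives about 1 in 20. Cdkn1c stood at 0.0435 CPM in DMSO replicate 2, which is 1 count, against 0 in the other DMSO libraries, and the ratio of Cdkn1c to Cdkn1b was 0.000279 there, against 0 in the other DMSO libraries. Cdkn2b stood at 0.260 CPM in DS38 replicate 4, against 0.335 to 0.346 CPM in the other DS38 libraries, all from 10 counts or fewer. Ccne2 stood at 65.6 CPM in DS38 replicate 1, against 70.2 to 70.9 CPM in the other DS38 libraries. Gli1 stood at 85.5 CPM in DS38 replicate 2, against 92.0 to 93.2 CPM in the other DS38 libraries. In both, that library lies farther from DMSO than the others do.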

How the results depend on the processing

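The 7 calls among the cyclin, kinase and inhibitor genes held their direction and stayed past the threshold under all 20 alternatives, 2 of them chosen after seeing the data (DS38 libraries 1 and 2, or 3 and 4, left out), and 7 to 8 genes were lower and 0 higher, the eighth being Cdkn2d. Over these alternatives the log2 fold change ran from -0.41 to -0.32 for Ccnd1, from -0.79 to -0.64 for Cdkn1a, from -0.28 to -0.17 for Cdkn1b and from -0.27 to -0.17 for Cdkn2c. Their highest adjusted p-values were 3.38e-05, 2.56e-06, 0.0323 and 0.0198. With the replicate number as a block, 7 of them were lower in edgeR. Deviations from the group means correlated at 0.331, -0.0699, 0.0670 and -0.0816 between DS38 and DMSO libraries of the same number, 1 to 4. For libraries of unlike numbers they correlated at -0.247 to 0.187. The labels do not say what the number marks, so whether it pairs the libraries is not known. For the turnover and assembly list, 5 genes rose with library totals alone, against 2, and 8 fell with the length trend removed, against 4. Of all genes, 3915 rose with library totals alone, against 2840, and 3779 fell with the length trend removed, against 3140. With DS38 libraries 1 and 2 left out, 1 gene of the transcription factor list rose, against 3, and 1780 of all genes did, against 2840. Of all called genes, 64.3% rose with library totals alone, against 47.5%. Log2 fold change and gene length had a Spearman's rho of 0.223 over 15133 genes, which are not independent replicates. Values near 0 that never passed changed sign: Ccnd3 stood at -0.042 with the length trend removed and -0.041 with DS38 libraries 1 and 2 left out, and ran from -0.0071 to 0.072 when 1 library was left out; Cdkn2a stood at 0.016 with library totals alone, 0.020 with the length trend removed and 0.016 without both libraries numbered 1, and ran from -0.11 to 0.021 when 1 library was left out. The log2 ratio of Cdkn2c to Cdkn2d ran from -0.11 to 0.0024 when 1 library was left out. That of Cdk6 to Cdk4 was 0.0091 with DS38 libraries 3 and 4 left out. The ratio tests kept the side of their threshold under all 13 alternatives, 4 of which cannot reach it: the sign-flip test within replicate numbers, with a smallest p of 0.125, the test without both libraries numbered 1, with 0.1, and the 2 without a DS38 pair, with 0.0667. Cdkn1c and Cdkn2b entered the test with no filter on low counts alone, without passing (adjusted p = 0.393 and 0.0676 in edgeR), and at 10 counts or fewer a library their changes are beyond this depth.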
